A study of Mus musculus with 3 samples.

Results

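Nodal and FGF signalling genes were followed in E14 mouse embryonic stem cells (mESCs), an established line of pluripotent cells, at 9 genes: Nodal, Lefty1, Lefty2, Tdgf1, Fgf4, Spry2, Spry4, Dusp6 and Fgf5. They were taken by name out of the 22367 protein-coding genes of the GENCODE M1 annotation of mm9, and the first 8 are known to be active in mouse embryonic stem cells, while Fgf5 is a marker of the later, primed state. The gDNA was read by 3 methods in 1 library each: TAPSβ for 5-methylcytosine (5mC), CAPS for 5-hydroxymethylcytosine (5hmC), and PS, pyridine borane sequencing, for 5-formylcytosine and 5-carboxylcytosine (5fC/5caC). In each method the target base is read as T, so a level is the percentage of base calls at CpG cytosines that were read as modified. All 3 libraries came from cells grown on gelatin in medium with FBS, LIF, PD0325901 and CHIR99021. PD0325901 inhibits MEK, a kinase of the ERK cascade, and CHIR99021 inhibits GSK3. No RNA was measured, so "active" and "primed" are prior knowledge of the genes and not readings of these cells.

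Nodal is a TGF-β family ligand that signals through activin receptors and Smad2/3, and it needs the co-receptor Tdgf1 (Cripto). Lefty1 and Lefty2 are secreted antagonists that Nodal signalling itself switches on. FGF4 is the main FGF made by mESCs and drives the Ras-ERK cascade, which induces its own brakes: Spry2 and Spry4 dampen the receptor pathway, and Dusp6 removes phosphate from ERK. Fgf5 is switched on when cells leave the naive state for the primed one. Methylated CpGs in promoters usually go with silent genes, whereas 5hmC and 5fC/5caC arise when TET enzymes oxidise 5mC.

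The libraries held 511365019 base calls in TAPSβ, 377288829 in CAPS and 383591531 in PS, with a median depth of 13, 9 and 9 reads per cytosine. Over the genome the levels were 57.5%, 3.14% and 0.246%. With 1 library per method there were no replicates. Intervals are exact (Clopper-Pearson) 95% binomial intervals and cover counting error only. Fisher's exact tests compared the base calls of Fgf5 with those of each other gene within a library, two-sided, with Benjamini-Hochberg adjustment over all protein-coding genes with at least 50 base calls. They compare loci in these libraries, and they treat the calls of neighbouring cytosines as independent although methylation is shared between neighbours, so their p-values are too small.

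The promoters differed in CpG density, which their sequences show. The 250 bases upstream of the annotated start are printed for 5 genes in gene direction, with each CpG in capitals. Fgf4 (chr7:152047041-152047290, plus strand, mm9) and Fgf5 (chr5:98682953-98683202, plus strand) show the CpG-rich kind, Nodal (chr10:60880470-60880719, plus strand) the sparse kind, and Lefty1 (chr1:182864903-182865152, plus strand) and Lefty2 (chr1:182822989-182823238, plus strand) a related pair.
Fgf4: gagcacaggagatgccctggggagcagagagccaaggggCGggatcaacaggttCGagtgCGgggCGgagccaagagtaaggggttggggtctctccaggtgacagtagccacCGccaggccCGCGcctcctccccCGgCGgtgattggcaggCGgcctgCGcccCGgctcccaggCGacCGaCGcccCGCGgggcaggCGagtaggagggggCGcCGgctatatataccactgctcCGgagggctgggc
Fgf5: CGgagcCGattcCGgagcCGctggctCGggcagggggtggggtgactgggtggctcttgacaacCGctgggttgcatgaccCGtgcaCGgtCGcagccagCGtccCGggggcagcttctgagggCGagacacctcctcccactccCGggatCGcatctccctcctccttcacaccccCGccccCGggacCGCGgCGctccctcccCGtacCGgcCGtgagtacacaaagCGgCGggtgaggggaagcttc
Nodal: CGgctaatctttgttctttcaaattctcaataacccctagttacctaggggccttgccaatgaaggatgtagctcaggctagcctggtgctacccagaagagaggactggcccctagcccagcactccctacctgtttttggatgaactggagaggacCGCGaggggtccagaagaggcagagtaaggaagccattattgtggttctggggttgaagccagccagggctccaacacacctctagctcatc
Lefty1: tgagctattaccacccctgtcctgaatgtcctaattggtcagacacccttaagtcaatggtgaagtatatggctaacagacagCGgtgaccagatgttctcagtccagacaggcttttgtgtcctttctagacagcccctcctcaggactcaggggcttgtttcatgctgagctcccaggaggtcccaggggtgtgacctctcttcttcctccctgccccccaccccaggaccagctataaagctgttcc
Lefty2: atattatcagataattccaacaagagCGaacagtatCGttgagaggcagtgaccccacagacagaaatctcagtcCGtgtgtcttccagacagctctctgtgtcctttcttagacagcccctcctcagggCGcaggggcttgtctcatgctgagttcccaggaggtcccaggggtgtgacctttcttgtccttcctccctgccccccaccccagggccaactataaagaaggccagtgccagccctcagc

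The printed stretches held 21 CpGs for Fgf4, 24 for Fgf5, 3 for Nodal, 1 for Lefty1 and 4 for Lefty2, and nearly all TAPSβ calls over them were unmodified. Fgf4 had 0 modified of 739 TAPSβ calls, which allows a level of up to 0.498%, and Fgf5 had 3 of 629 (0.477%, 95% interval 0.0985 to 1.39%). The sparse promoters had 0 of 125 calls for Nodal (up to 2.91%), 0 of 49 for Lefty1 (up to 7.25%) and 2 of 103 for Lefty2 (1.94%, 0.236 to 6.84%). The stretches of the Lefty pair aligned over 145 columns with 131 identical bases (90.3%).

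Over the whole promoter, 500 bp on each side of the start, all 9 genes were close to unmethylated, and Fgf5 lay within the range of the other 8. Among the Nodal genes, TAPSβ was 0.849% at Nodal (12 of 1413 calls, 0.440 to 1.48%), 1.00% at Lefty1 (7 of 698, 0.404 to 2.06%), 2.43% at Lefty2 (13 of 534, 1.30 to 4.13%) and 0.268% at Tdgf1 (3 of 1120, 0.0553 to 0.781%). Among the FGF genes it was 0.285% at Fgf4 (9 of 3158, 0.130 to 0.540%), 0.242% at Spry2 (5 of 2070), 0.465% at Spry4 (12 of 2581) and 0.118% at Dusp6 (2 of 1702). Fgf5 gave 0.863% (19 of 2201, 0.521 to 1.34%). Tdgf1, Fgf4, Spry2 and Dusp6 lay near or below the false-positive rate on unmodified C that the paper reports for TAPSβ. Their levels are thus not told apart from no 5mC. All 9 lay under the median of 21129 protein-coding promoters, 3.38%, whose quartiles were 0.440% and 57.3%, and none reached 20%, a level that 36.8% of promoters reached. The Fgf5 promoter ranked at the percentile 33.7, between Nodal at 33.5 and Lefty1 at 35.4.

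The differences between the promoter of Fgf5 and the other 8 were all under 2 percentage points. By Fisher's exact test Fgf5 was higher than Fgf4, Spry2 and Dusp6, by 0.578, 0.622 and 0.746 points (adjusted p = 0.00848, 0.00991 and 0.00212), and lower than Lefty2 by 1.57 points (95% interval of Fgf5 minus Lefty2, -3.29 to -0.456 points, adjusted p = 0.00794). Over all genes tested, Fgf5 was called higher than 20.9% and lower than 58.7%. Nodal, Lefty1, Tdgf1 and Spry4 were not called, with intervals of the difference between -1.24 and 1.11 points. The 4 calls rest on few modified reads: none was left when cytosines were kept at least 150 bp apart, with 250 bp on each side Fgf5 was called higher than 0 and lower than 2, and with 1000 bp higher than 6 and lower than 1. Within the Fgf5 promoter the modified calls lay mostly at its outer edge, with 7 of 45 calls (15.6%) between 500 and 400 bp upstream, 3 of 58 (5.17%) in the next 100 bp and 0 of 231 in the first 100 bp of the gene.

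**Figure D1:**
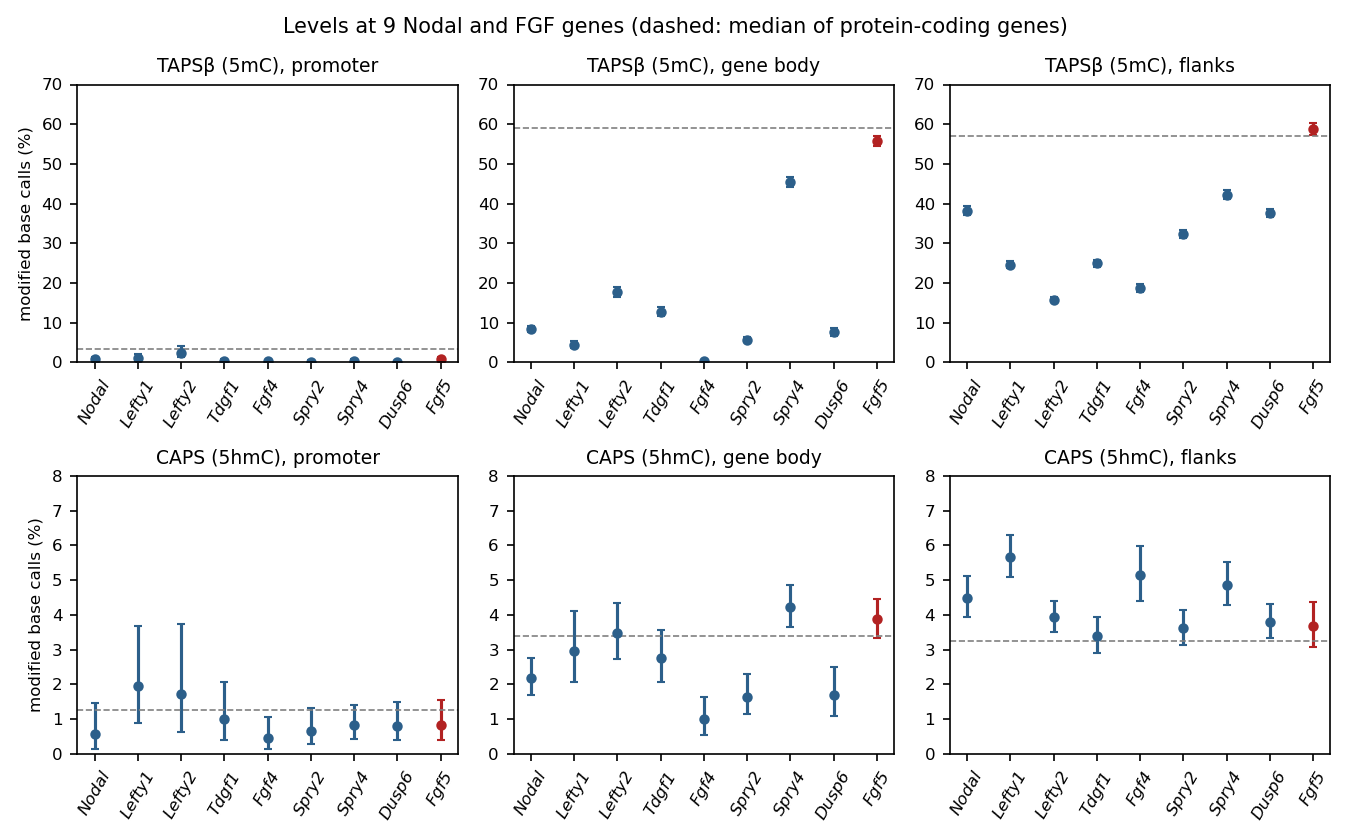
Level in percent of base calls (vertical axis) of TAPSβ (upper row) and CAPS (lower row) over the promoter, gene body and 10-kb flanks of the 9 genes, with exact 95% binomial intervals; Fgf5 is red and the dashed line is the median of all protein-coding genes. The 9 promoters lie together near 0 in TAPSβ, while in the gene body Fgf5 (55.8%) and Spry4 (45.5%) lie far above the other 7 genes.

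Beyond the promoter the genes parted. The gene body, from the promoter to the annotated end, was 55.8% methylated in Fgf5 (3480 of 6235 TAPSβ calls, 54.6 to 57.1%), close to the median of 20856 genes, 59.1%. Fgf4 was at 0.423% (12 of 2837), Lefty1 at 4.49% (100 of 2228), Spry2 at 5.77% (254 of 4404), Dusp6 at 7.56% (227 of 3001) and Nodal at 8.33% (385 of 4622). Tdgf1 and Lefty2 were somewhat higher at 12.8% (392 of 3059) and 17.6% (655 of 3716), and Spry4 was at 45.5% (2864 of 6299). These pooled levels weight each part by its calls. At Lefty2 the 1-kb bin at 1000 to 1999 bp held 2301 of the 3716 calls, 12 of them modified. Outside bins that touch the promoter, 1 of the 5 gene bins of Lefty2 was under 20%, and its median gene bin was at 53.4%. The median gene bin was at 67.7% in Fgf5, 61.0% in Spry4, 23.0% in Tdgf1, 12.9% in Dusp6 and lower in the rest. By pooled level Fgf4, Lefty1, Spry2, Dusp6, Nodal, Tdgf1 and Lefty2 fell in the lowest 5.43% of genes, whereas Spry4 ranked at the percentile 23.4 and Fgf5 at 41.2. Fgf5 was higher than each of the 8 genes by Fisher's exact test (largest adjusted p = 1.23e-30, for Spry4), by 10.3 points against Spry4 (8.60 to 12.1) and by 38.2 to 55.4 points against the others. Fgf5 was called higher than 36.3% and lower than 52.4% of all genes tested.

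Exons and introns were not alike in every gene. In Tdgf1 the exons beyond the promoter were at 32.5% (245 of 753 TAPSβ calls) and the introns at 6.37% (147 of 2306), and in Dusp6 they were at 10.02% (219 of 2185) and 0.980% (8 of 816). In Fgf5 both were high, 62.8% (546 of 870) and 54.7% (2934 of 5365). Spry4 had 41.6% in exons and 47.8% in introns, and Fgf4 0.280% and 0.666%. The introns of Dusp6 and all of Fgf4 were thus under 1%. The methylated calls of Tdgf1 and Dusp6 lay largely in exons, but exons and introns were not matched for distance from the start. In Tdgf1 the 1-kb bin at 4000 to 4999 bp, which overlaps no exon, was at 25.9% (108 of 417). The bins before and after it, which do, were at 20.2% and 35.9%. In Dusp6, steps of 500 bp stayed under 20% out to 3500 bp of the 4258-bp gene.

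The gene bodies compared differ in length: Fgf5 spans 22847 bp and Spry4 15001 bp, while the other 7 span 3379 to 7367 bp. At matched distance, 0.5 to 3 kb downstream of the start whatever the gene's length, Fgf5 was at 11.8% (163 of 1387 TAPSβ calls, 10.1 to 13.6%), far under the median of all genes there, 43.0%. Spry4 was then the highest at 33.3% (506 of 1520, 30.9 to 35.7%), and Fgf5 was lower than Spry4 by 21.5 points (Fgf5 minus Spry4, -24.4 to -18.6, Fisher's exact adjusted p = 1.25e-44). The other 7 were between 0.325% at Fgf4 (8 of 2464) and 3.56% at Lefty1 (73 of 2051), and Fgf5 was higher than each of them, by 8.19 to 11.4 points (Fisher's exact, largest adjusted p = 5.28e-20). Over all genes tested in this window Fgf5 was called higher than 12.6% and lower than 81.7%. The order of Fgf5 and Spry4 thus turned, and the gap between Fgf5 and the short genes shrank from 38.2 points or more to 11.4 points or less. This window was chosen after the gene body values had been seen.

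The low stretch around each start differed in length between the genes. Going out from the start in steps of 500 bp for as long as TAPSβ stayed under 20%, passing over steps with under 20 calls, Fgf4 had a stretch of 14.0 kb, from 6.5 kb upstream to 7.5 kb downstream. It covered the whole gene and held 236 modified of 8725 calls (2.70%). Spry2 followed with 7.0 kb, Nodal with 6.5 kb, Tdgf1 and Dusp6 with 6.0 kb each and Lefty1 with 5.5 kb. Fgf5 had 3.5 kb, and Lefty2 and Spry4 3.0 kb each. The stretch covered 100% of Lefty1, 82.2% of Dusp6, 82.1% of Spry2, 47.5% of Nodal, 38.2% of Tdgf1 and 33.4% of Lefty2, against 10.9% of Fgf5 and 6.67% of Spry4. Of all 22367 protein-coding genes, 14098 had such a stretch, with a median of 2.0 kb and 4.5 kb at the 95th percentile. Fgf4, Spry2, Nodal, Tdgf1, Dusp6 and Lefty1 were longer than that, and Fgf5, Lefty2 and Spry4 were not.

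**Figure D2:**
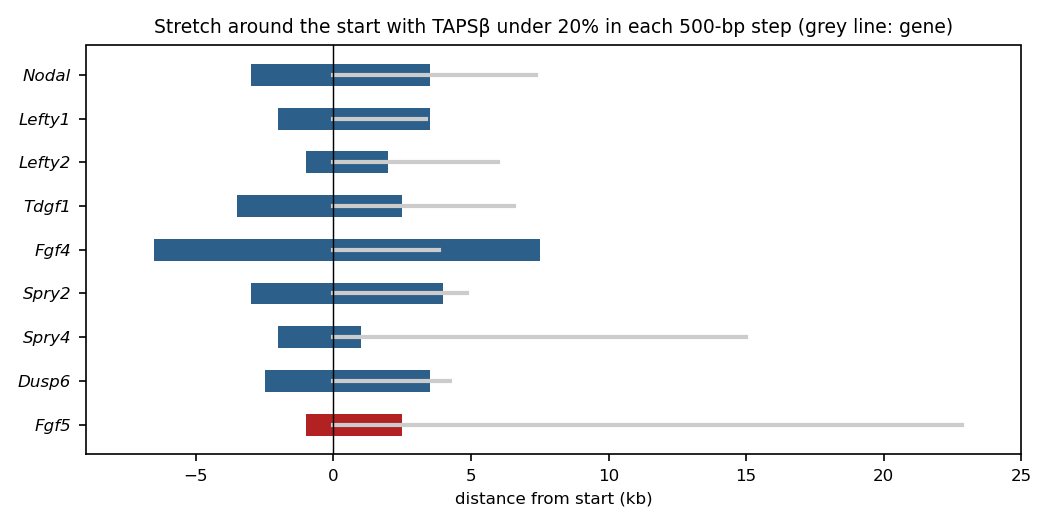
Stretch around each annotated start, in kb of distance from the start (horizontal axis), over which TAPSβ stayed under 20% in 500-bp steps (bars; Fgf5 red), with the gene as a grey line. The bar of Fgf4, 14.0 kb, runs past both ends of the gene, whereas the bars of Fgf5 (3.5 kb) and Spry4 (3.0 kb) cover only the first part of long genes.

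The 1-kb bins showed where the low stretches ended and which further dips lay beyond them. Outside bins that touch the promoter, TAPSβ was under 20% in 13 of 22 bins at Fgf4, 11 of 25 at Nodal, 10 of 23 at Lefty2, 8 of 22 at Lefty1, 8 of 25 at Tdgf1, 5 of 23 at Spry2 and 4 of 23 at Dusp6. It was under 20% in 1 of 33 bins at Spry4 and 1 of 41 at Fgf5, while 3.29% of all 1-kb bins of the genome with at least 50 calls were that low. The single low bin of Fgf5 was in its first intron, 1000 to 1999 bp downstream of the start, at 7.66% (55 of 718 calls). The lowest bins of Nodal, Tdgf1 and Dusp6 all lay at -2000 to -1001 bp from the start, at 0.136% (1 of 738), 0.152% (1 of 660) and 0.272% (7 of 2576). In Fgf4 the bin at -4000 to -3001 bp had 0 of 285 modified calls. Part of the low flanking bins lie at neighbouring genes.

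**Figure D3:**
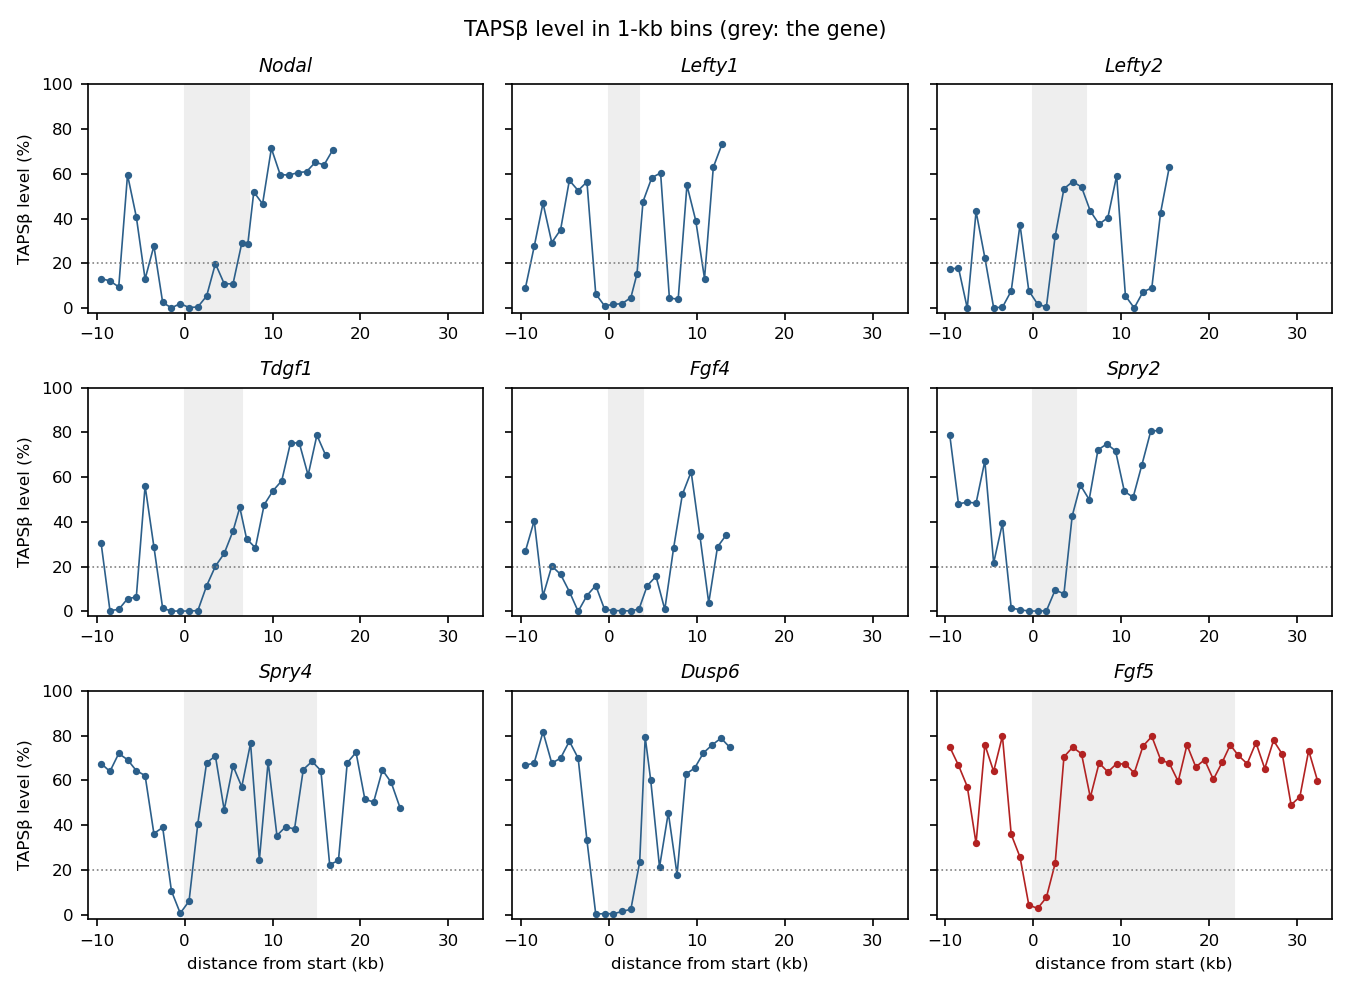
TAPSβ level in percent (vertical axis) in 1-kb bins against distance from the start in kb (horizontal axis) at the 9 genes, with the gene shaded grey, Fgf5 red and a dotted line at 20%; bins with under 20 calls are not drawn. Fgf5 rises within 4 kb downstream of its start to the level of the rest of the gene (median bin 67.7%), while the loci of Fgf4, Nodal and the Lefty genes, flanks included, hold many bins under 20%.

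Over the 10-kb flanks beyond the promoter and the gene end, Fgf5 was the most methylated of the 9 at 58.8% (2594 of 4414 TAPSβ calls, 57.3 to 60.2%), near the median of 22134 genes, 57.0%. Lefty2 was lowest at 15.8% (1898 of 12035), followed by Fgf4 at 18.7%, Lefty1 at 24.7%, Tdgf1 at 24.9%, Spry2 at 32.4%, Dusp6 at 37.6%, Nodal at 38.2% and Spry4 at 42.3%. Pooled levels weight each part by its calls. At Dusp6 the bin at -2000 to -1001 bp held 2576 of the 8422 flank calls, 7 of them modified. The median 1-kb bin of Dusp6 was at 67.9% upstream and 64.2% downstream, against 64.0% and 69.3% at Fgf5. Fgf5 was higher than all 8 by Fisher's exact test (largest adjusted p = 2.16e-68, for Spry4), by 16.5 points against Spry4 (14.7 to 18.3) and 43.0 points against Lefty2 (41.4 to 44.6), and it was called higher than 48.9% and lower than 39.3% of all genes tested. In whole 1-kb bins that overlap neither the promoter nor another gene, Fgf5 was at 61.4% of 4164 calls, and the others were between 19.1% at Fgf4 and 49.4% at Spry4. The order of the others changed there, with Tdgf1 at 43.4% and Lefty1 at 36.7%, both above Nodal at 34.1%.

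The sides of a gene were far apart in some members. Upstream of Tdgf1 the level was 6.92% (367 of 5306 TAPSβ calls) and downstream 61.8% (1604 of 2597). Spry2 had 15.4% upstream and 64.2% downstream, and Nodal 17.1% and 62.3%. By the median 1-kb bin the sides of Spry2 were closer, at 48.1% and 68.7%, and 2 of its 9 upstream bins were under 20%. For Tdgf1 the median bins were at 5.65% and 59.6%, and for Nodal at 13.0% and 60.8%. Fgf5 was above 50% on both sides, at 50.3% (1071 of 2130) and 66.7% (1523 of 2284). At Tdgf1 5 of the 19 flanking bins overlap Lrrc2, all of them upstream, and at Nodal 3 overlap Eif4ebp2, all of them downstream. The Lrrc2 bin at -8000 to -7001 bp alone held 1250 of the 5306 upstream calls of Tdgf1, 11 of them modified.

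Sequence elements known from these genes fell within the low stretches in part. The Sox-octamer element of Fgf4, an enhancer in the last exon that Sox2 and Oct4 bind together, was searched as CTTTGTT followed after 3 bases by ATGCTAAT on both strands. It occurred once in the Fgf4 locus, the gene with 10 kb on each side, at chr7:152050299-152050316 on the plus strand, 3016 bp downstream of the Fgf4 start in an exon, and in 0 of 22367 promoters of 1 kb. Windows of the length of this locus, 23858 bp, held it at 3 of the 22367 genes. The match is shown with its parts in capitals.
Fgf4 element: CTTTGTTtggATGCTAAT
The element itself holds no CpG, and within 250 bp of it 0 of 123 TAPSβ calls (up to 2.95%), 1 of 75 CAPS calls and 0 of 94 PS calls were modified at 7 cytosines.

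Foxh1, the DNA-binding partner of Smad2/3, is known to bind AATCCACA. It was searched on both strands of the Nodal, Lefty1 and Lefty2 loci, and windows of the length of these loci held it at 68.6%, 62.9% and 66.9% of all genes, so that a match in such a window is common (2.86% of 1-kb promoters held it). Nodal carried it in an intron at chr10:60882047-60882054 and at chr10:60882841-60882848, 1330 and 2124 bp downstream of the start, and Lefty2 had a pair 75 bp apart upstream, at -4212 and -4129 bp. At least as many matches were held by 32.9% of windows of the length of the Nodal locus and 30.9% of those of the Lefty2 locus. The first Nodal match and the Lefty2 pair (chr1:182819004-182819134, plus strand) are printed with the motif in capitals.
Nodal: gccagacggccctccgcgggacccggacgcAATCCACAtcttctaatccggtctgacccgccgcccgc
Lefty2: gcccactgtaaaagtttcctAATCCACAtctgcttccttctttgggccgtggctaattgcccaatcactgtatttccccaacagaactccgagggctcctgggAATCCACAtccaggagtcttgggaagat
Within 250 bp of the Nodal matches TAPSβ was 0.324% (3 of 925 calls) and 1.65% (3 of 182), and around the Lefty2 pair it was 0 of 442 and 0 of 475. The 2 windows of the Lefty2 pair overlap, so most of these calls are shared. The Lefty2 pair sits in a second low stretch, apart from the one at the start: the bins at -5000 to -4001 and -4000 to -3001 bp were at 0.232% (2 of 862) and 0.399% (3 of 751), and the bin at -2000 to -1001 bp was at 37.3% (143 of 383). The match of Lefty1, at -5327 bp, was different, with TAPSβ at 42.6% (60 of 141) and CAPS at 10.8% (10 of 93). The variant AATACACA, held by 81.0% of windows of the length of the Nodal locus, 79.5% of those of the Lefty2 locus and 3.38% of promoters, matched at 2 places upstream of Nodal, with TAPSβ at 12.2% (24 of 197) and 40.0% (10 of 25), and at 3 places of Lefty2, at 26.5% (9 of 34), at 32.2% (67 of 208) and with no calls. A match is a description of letters and not a measured binding site.

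5hmC over the promoters was low at all 9 genes, beside a CAPS background rate of 0.72% of base calls. CAPS ranged from 0.460% at Fgf4 (5 of 1088 calls, 0.149 to 1.07%) to 1.95% at Lefty1 (9 of 461, 0.896 to 3.67%), and Fgf5 had 0.841% (10 of 1189, 0.404 to 1.54%). The interval of Lefty1 lay wholly above that rate. With a lower background rate of 0.38%, those of Lefty2, Tdgf1, Spry4, Dusp6 and Fgf5 did as well, 6 of the 9 in all. The lower rate belongs to methylated control DNA and the main rate to unmodified control DNA. As these promoters were close to unmethylated in TAPSβ, the main rate is the closer match. The count at the lower rate is thus not read as promoter 5hmC. None of the 8 was called different from Fgf5 by Fisher's exact test, and none had an unadjusted p under 0.05 (0 of 8), while Fgf5 was called higher than 0.135% and lower than 25.6% of all promoters. The intervals of Fgf5 minus each gene reached from -2.93 to 1.13 points. With 1000 bp on each side Fgf5 was called higher than 5 of the 8.

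In the gene body CAPS followed TAPSβ in part. It was 3.87% in Fgf5 and 4.24% in Spry4, the longest genes, and 0.995% in Fgf4, 1.65% in Spry2, 1.70% in Dusp6 and 2.18% in Nodal. Fgf5 was higher than these last 4, by 2.88, 2.23, 2.17 and 1.70 points (Fisher's exact, largest adjusted p = 0.000173), and was called higher than 29.4% and lower than 11.2% of all genes tested. Lefty2 at 3.47%, Lefty1 at 2.97% and Tdgf1 at 2.75% were not called. With cytosines at least 150 bp apart 0 of the 8 were called. At 0.5 to 3 kb downstream, the window used above for TAPSβ, Fgf5 was at 3.17% and was called higher than Nodal, Lefty2, Tdgf1, Fgf4 and Spry2 (Fisher's exact, largest adjusted p = 0.0491), beside 7.93% of all genes that it was higher and 5.67% that it was lower than. Dusp6 was not called in this window (1.28 points, -0.0228 to 2.68, Fisher's exact adjusted p = 0.201).

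In the flanks 3 of the 8 genes known to be active carried more 5hmC than Fgf5, although they carried less 5mC there. CAPS was 5.68% at Lefty1, 5.15% at Fgf4, 4.87% at Spry4 and 4.49% at Nodal, which ranked at the percentiles 97.1, 93.8, 90.8 and 85.1 of 22118 genes, against 3.68% and 64.4 at Fgf5. Fgf5 was lower than Lefty1 by 2.00 points (Fgf5 minus Lefty1, -2.86 to -1.10, Fisher's exact adjusted p = 0.000192), than Fgf4 by 1.47 points (-2.49 to -0.468, 0.0146) and than Spry4 by 1.19 points (-2.06 to -0.292, 0.0288), and it was called lower than 10% and higher than 28.7% of all genes tested. Nodal at 4.49%, Lefty2 at 3.94%, Dusp6 at 3.81%, Spry2 at 3.62% and Tdgf1 at 3.40% were not called. In whole 1-kb bins that overlap neither the promoter nor another gene, Fgf5 was at 3.47% (2.86 to 4.16%). There the others were between 3.91% at Dusp6 and 8.41% at Lefty1, with Spry2 at 4.07% and Tdgf1 at 4.55%, and no test was run. With cytosines at least 150 bp apart 0 of the 8 were called, and on the upstream side alone Fgf5 was lower than Lefty1 only and higher than Tdgf1, Spry2 and Dusp6, where it was lower than 2.91% and higher than 34.4% of all genes.

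CAPS in 1-kb bins varied within and between loci. Of the bins with at least 50 calls, 37 of 253 (14.6%) were above 7.87%, the 95th percentile of all 1-kb bins of the genome, and 10 were above 11.3%, the 99th. Lefty1 had 8 of 24 bins above 7.87%, Lefty2 6 of 25, Tdgf1 6 of 27, Fgf4 5 of 23, Spry2 4 of 25, Dusp6 3 of 25, Spry4 3 of 35, Nodal 1 of 27 and Fgf5 1 of 42. Upstream of Lefty1, 5 of the 10 bins were at 10.03 to 11.7%, all between -9000 and -3001 bp from the start, with TAPSβ between 27.6% and 52.6% in them.

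The highest CAPS bin of Dusp6 held little 5mC. It lay 7258 to 8257 bp downstream of the start, 3 kb past the gene end, with CAPS at 13.6% (45 of 330 calls, 10.1 to 17.8%), TAPSβ at 17.9% (68 of 380) and PS at 0.389% (1 of 257). The bins just before it rose toward it, with CAPS at 5.56%, 8.05% and 9.17%, and the next one was back at 4.74% with TAPSβ at 62.8%. The highest bins of the other genes were 14.9% at Fgf4 (10 of 67 calls), 14.0% at Tdgf1 (7 of 50), 13.8% at Lefty1 (17 of 123), 10.8% at Spry2, 10.3% at Lefty2, 8.96% at Nodal, 8.55% at Fgf5 (13 of 152) and 8.37% at Spry4, and all 9 were downstream of the gene. In these 8 bins TAPSβ was 32.4% or more, while the bin of Lefty2 at -10000 to -9001 bp had CAPS at 10.03% with TAPSβ at 17.4%. They were picked as each gene's highest and carry no test.

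**Figure D4:**
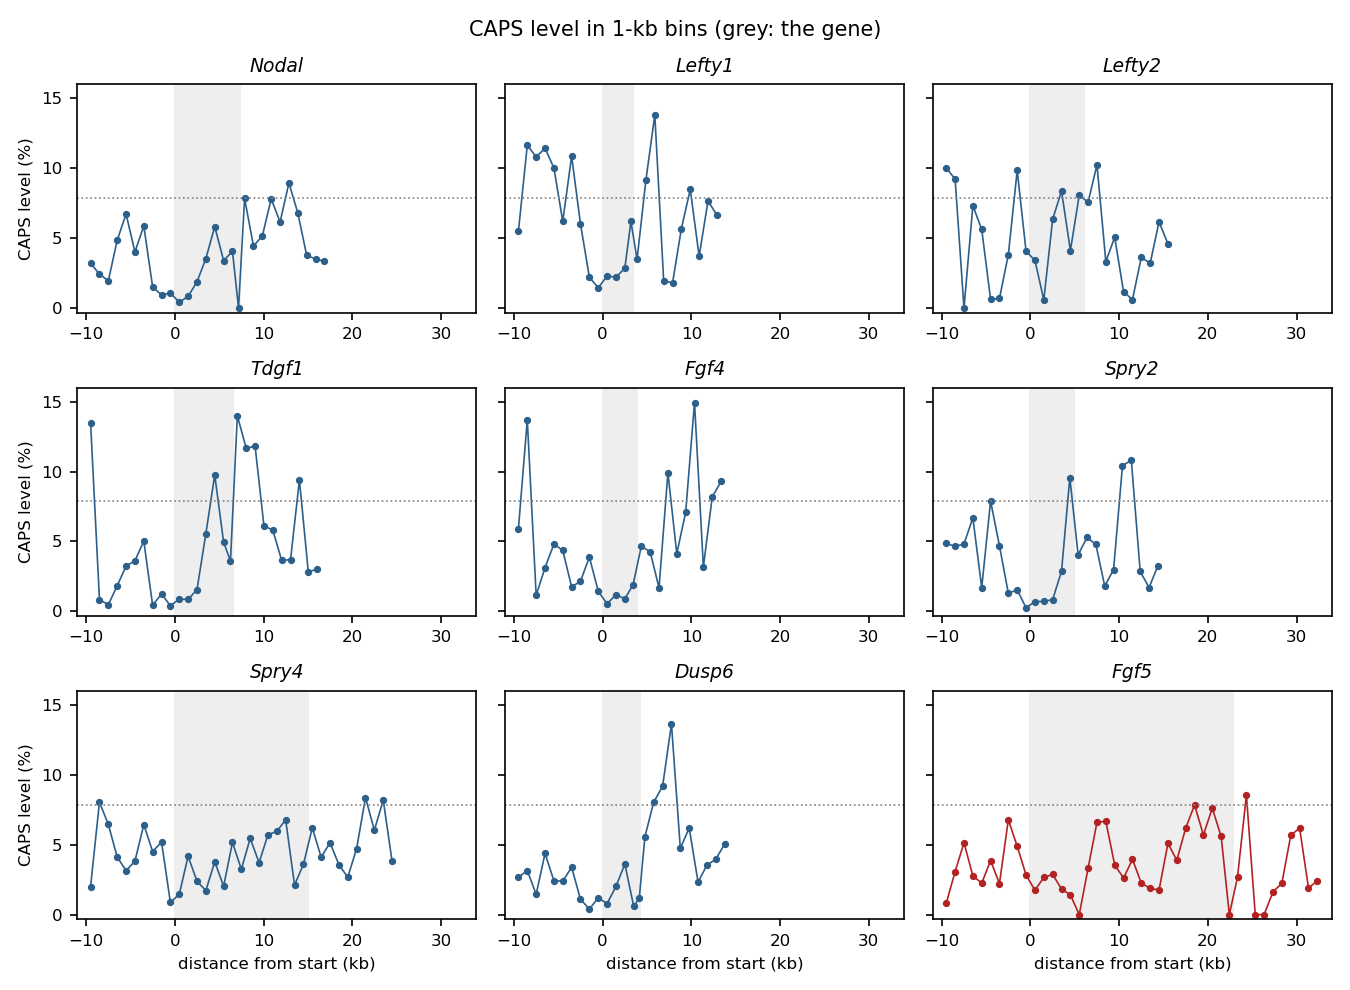
CAPS level in percent (vertical axis) in 1-kb bins against distance from the start in kb (horizontal axis) at the 9 genes, with the gene shaded grey, Fgf5 red and a dotted line at the 95th percentile of all 1-kb bins of the genome (7.87%); bins with under 20 calls are not drawn. Lefty1 has 5 bins above the line upstream, Dusp6 a bin at 13.6% downstream, and Fgf5 1 bin above it.

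At single cytosines with at least 5 reads, 161 of 7651 (2.10%) in the 9 loci were called modified in CAPS (one-sided exact binomial test, adjusted over the genome), against 1.64% of the 36060655 cytosines tested in the genome. The count depends on the settings, and was 103 with at least 10 reads, 284 with strands summed and 498 with a background rate of 0.0038 or with adjustment over the cytosines that had a modified read. Some of these settings also change how many cytosines are tested, so the counts are not shares. Lefty1 had 36 of 720 (5.00%), Spry4 29 of 1073 (2.70%), Nodal 19 of 811 (2.34%), Lefty2 19 of 896 (2.12%), Fgf4 10 of 571 (1.75%), Fgf5 15 of 977 (1.54%), Tdgf1 11 of 721 (1.53%), Dusp6 13 of 940 (1.38%) and Spry2 9 of 942 (0.955%). Of the 161, 1 lay in a promoter, that of Lefty2. The share of promoter cytosines called was not computed, here or over all genes, so this count is not read as low or high. By place, 12 of the 15 in Fgf5 were intronic, of 416 cytosines tested in its introns (2.88%), with 0 of 205 upstream and 2 of 197 downstream. Lefty1 had 19 of 224 upstream (8.48%), 17 of 344 downstream (4.94%) and 0 of 130 in exons and 0 of 22 in introns, and 11 of the 13 of Dusp6 were downstream, of 284 tested there (3.87%). In TAPSβ, fewer than 50% of reads were modified at 106 of the 145 called cytosines with TAPSβ reads of the 8 genes known to be active (73.1%), close to the 72.2% of all cytosines tested there, and at 3 of the 15 of Fgf5, where 38.6% of those tested were.

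The called CpGs with the smallest p at Lefty1, Lefty2 and Nodal are shown in capitals with 30 bases on each side, plus strand, as examples of single 5hmC sites in the Nodal genes. At Nodal 6 other called cytosines had higher levels, on 6 to 9 reads each. They lie at chr1:182857177-182857238, upstream of Lefty1 with the called cytosine at -7945 bp, at chr1:182830243-182830304, downstream of Lefty2, and at chr10:60874893-60874954, upstream of Nodal.
Lefty1: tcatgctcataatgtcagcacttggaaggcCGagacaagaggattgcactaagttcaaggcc
Lefty2: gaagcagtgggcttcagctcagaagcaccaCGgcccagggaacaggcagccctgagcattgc
Nodal: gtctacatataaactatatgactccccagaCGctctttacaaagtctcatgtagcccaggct
At the Lefty1 CpG the minus strand had 7 of 12 CAPS reads modified (58.3%, 27.7 to 84.8%, exact binomial adjusted p = 2.53e-09) and the plus strand 0 of 12. At Lefty2 the minus strand had 5 of 8 and the plus strand 1 of 6, and at Nodal the plus strand had 5 of 16 and the minus strand 1 of 7. In all 3 the modified CAPS reads lay mostly on 1 strand of the CpG. TAPSβ had 3 of 10, 2 of 17 and 1 of 14 reads modified on that strand, and 4 of 17, 3 of 24 and 6 of 18 on the other. The strand was picked by its p, so the contrast between strands carries no test.

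PS levels were low throughout these loci and are read against a PS background rate of 0.27% of base calls. Promoter levels, beside a median of 0.203% over all genes, were between 0% at Lefty2 (0 of 496 calls, up to 0.741%) and 0.617% at Lefty1 (3 of 486), and Fgf5 had 0.480% (6 of 1250). Lefty1, Nodal and Fgf5 ranked at the percentiles 93.7, 92.1 and 88.4 of promoters, on 3, 4 and 6 modified calls. Gene bodies lay between 0.0852% and 0.320%, and flanks between 0.0904% at Spry4 and 0.261% at Spry2, around the medians of all genes, 0.177% and 0.191%. None of the 8 genes was called different from Fgf5 in any of the 3 regions (Fisher's exact, 0 of 8 also at an unadjusted p under 0.05), where 0.55%, 2.75% and 4.57% of all genes were called in promoters, bodies and flanks. In none of the 9 genes did the 95% interval of the PS level of any of the 3 regions lie above the background rate, while with a lower rate of 0.1% it did in 3 promoters (Nodal, Lefty1 and Fgf5), 0 gene bodies and the flanks of 7 genes. Here too the lower rate belongs to methylated control DNA, so for these promoters the main rate is the closer match. The flanks were partly methylated, and neither rate alone matches them. In PS 1 of 7970 cytosines (0.0125%) was called, against 0.0791% in the genome. It lay 14586 bp downstream of the Tdgf1 start in a run of CG and TG repeats, with 3 of 7 PS reads, 5 of 7 CAPS reads and no TAPSβ reads, and its PS level was above the 20% used to set aside cytosines that resemble a sequence variant.

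The wider pathways were low at their promoters as well. Of 72 further genes in 12 lists, 70 were matched by symbol, and 5 of them (7.14%) had a promoter TAPSβ of 20% or more, beside the 36.8% of all promoters given above. The median was 0.415% over the 70 promoters and 43.8% over their gene bodies. The 5 were Furin, a protease that cleaves pro-Nodal, at 69.3%, Cfc1, a co-receptor related to Tdgf1, at 61.7%, Cer1, a secreted Nodal antagonist, at 55.6%, Otx2, a regulator of the primed state, at 27.4%, and the ligand Fgf1 at 22.2%. From the start of the longest coding transcript Furin was at 1.91% and Otx2 at 1.42%, while Cfc1, Cer1 and Fgf1 (29.7%) stayed above 20% and Dand5, another Nodal antagonist, went from 0.293% to 39.9%, so that 4 were above 20%. None of the 4 listed receptors of FGF, the 7 adaptors, the 9 matched members of the Ras-ERK cascade or the 9 matched feedback inhibitors passed 20%, with the highest at 3.25% for Fgfr1. The transducers Smad2, Smad3, Smad4 and Foxh1 lay between 0.121% and 0.504%, and the activin receptors Acvr1b, Acvr1c, Acvr2a and Acvr2b between 0.108% and 1.10%.

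Low gene bodies also occurred among the listed genes. Of the 70, 17 were under 20% in TAPSβ beyond the promoter, beside 6.29% of all protein-coding genes with at least 50 calls there, among them Myc at 1.59%, Foxh1 at 3.62%, the Nodal target Gsc at 6.16% and the ligand Gdf3 at 6.62%, named after their values had been seen. Of the other primed markers, Zic2 was at 1.82%, Pou3f1 at 3.01% and Otx2 at 6.63%, while Lef1 was at 51.9%. By mean absolute difference of TAPSβ from Fgf5 in 100-bp bins across the promoter, the smallest values among the listed genes included Mapk3 (0.356 points over 8 bins) and Nras (0.722 over 9). Bins with under 10 calls were left out, so values over different bins do not rank likeness to Fgf5. Mapk3 and Dusp4 both had 0% over the promoter, yet Dusp4 was at 2.36 points over 10 bins.

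**Figure D5:**
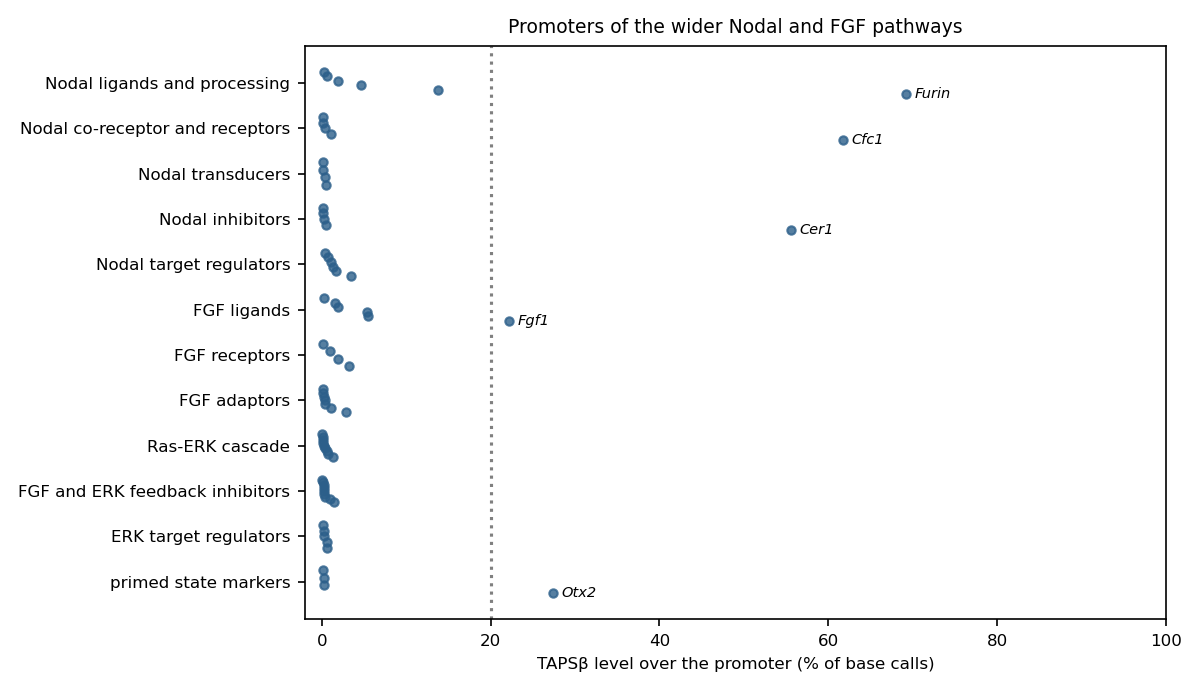
TAPSβ level over the promoter in percent of base calls (horizontal axis) of 70 further genes in 12 pathway lists (rows; each point a gene), with a dotted line at 20%. The 5 genes past 20% are named, and 65 genes lie under 20%.

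Sequence shared with other places in the genome touched a few of these values. Only promoters and exons were searched for copies. Introns, flanks and the called CAPS cytosines within them were not searched, so copies there are unknown. The Lefty genes, 35.9 kb apart, matched each other at 95% identity or more over 730 bases of exon, at which TAPSβ was 2.78% in Lefty1 and 11.9% in Lefty2, and their promoters had no such copy over 150 bp. Without these bases the exons beyond the promoter were at 5.82% in Lefty1 and 24.2% in Lefty2. Tdgf1 had 1 copy of 270 bases of this identity at its promoter and first exon, where 1 of 299 TAPSβ calls was modified. The Nodal promoter held 183 bases of a repeat with 7439 copies of this identity, with 3 of 194 TAPSβ calls modified.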

How the data were processed

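The authors trimmed reads with Trim Galore 0.3.1, mapped them with BWA 0.7.12 to mm9 with spike-in sequences, removed duplicates with Picard 2.3.0, dropped poorly placed reads and ran asTair to call modification. At each CpG cytosine the deposited columns give modified and unmodified read counts, not normalized, and the fraction modified. The deposited fraction matched the counts, to within rounding, on every line with reads. Sequences and gene bounds came from the mm9 genome and GENCODE M1, and a start is the outer gene bound.

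Counts were summed over each region, with no correction for conversion. Calls used cytosines with at least 5 reads and background rates of 0.0072 (CAPS) and 0.0027 (PS), taken as inputs from the study's spike-in controls and not derived here, with adjusted p under 0.05. These rates belong to unmodified control DNA, and the lower rates used as alternatives to methylated control DNA. Differences carry Newcombe intervals. Named features were, per gene, the bins of highest CAPS and lowest TAPSβ and the 3 calls of smallest p. Some items that this rule names are not reported here. The members and lists were chosen with earlier results of these data known. The matched-distance window, low stretches, bin percentiles, exon copies, flanks without other genes, cytosines tested by place and locus-length motif windows were added after values were seen. Copies of promoters and exons were searched with BLAST+ 2.17.0. Statistics were tested on simulated data with independent base calls. Such data cannot show the effect of methylation shared between neighbouring cytosines on the p-values. Python 3.11.15, numpy 2.4.6, scipy 1.17.1 and pandas 2.3.3 were used.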

Additional observations from a re-analysis of the deposited data

How the results depend on the processing

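In TAPSβ, Fgf5 remained higher than all 8 genes in the gene body and in the flanks with other read minimums, strands, spacing and starts, and without variant-like or high-coverage cytosines. At 0.5 to 3 kb downstream, a setting chosen after seeing the data, 7 were lower and Spry4 was higher. The 4 promoter calls became 0 with cytosines at least 150 bp apart (7 genes tested), 1 on either strand alone, 7 with 1000 bp on each side (Fgf5 higher than 6) and 2 with 250 bp (Fgf5 lower than both). CAPS promoter calls went from 0 to 5 with 1000 bp. CAPS gene body calls went from 4 to 0 with cytosines 150 bp apart and 2 on the plus strand, and CAPS flank calls from 3 to 0 with cytosines 150 bp apart, 0 on the plus strand, 1 on the minus strand and 4 upstream alone (Fgf5 higher than 3 and lower than 1, also chosen after seeing the data). The 161 CAPS cytosines became 498 with adjustment over cytosines with a modified read, 498 with a background rate of 0.0038, 284 with strands summed and 103 with at least 10 reads, as counts out of differing numbers tested. The 1 PS cytosine became 157, 0 with at least 10 reads and 0 without variant-like cytosines, and 157 came from adjusting over the 159 cytosines of these loci among those with a modified read. The strand and spacing settings hold fewer calls by construction, and the cause of the other changes was not tested. No paired analysis was possible because each method has 1 library. Depth limits single cytosines: a call at the median CAPS depth rests on 9 reads.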
